A study of Homo sapiens with 24 samples.

Results

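The genes described here are 37 genes induced by type I interferon, chosen by name, with all probes that the array annotation assigns to them. Of these, 36 were measured, by 53 of the 47323 probes, among 20046 named genes. STAT2 was not analysed here, and DDX58 is listed under its current symbol RIGI. A single probe measured 25 of the genes, and the other 11 had up to 4 probes each.

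Expression had been measured on Illumina arrays with biotin-labelled total RNA from clones of human cell lines bought from ATCC, in which TALEN nucleases had been used to knock out Rap1. Rap1, the product of TERF2IP, belongs to the shelterin complex of telomeres. In HCT116, a line from a colorectal carcinoma, clones 10, 21 and 28 are labelled knockout and clones 15, 20 and 23 wild type. In HT1080, from a fibrosarcoma, clones 8 and 21 are knockout and clones 2 and 9 wild type. Every clone of these lines had 2 arrays. No growth conditions, interferon or other treatment are given for any group, and each clone is 1 isolate of its line, so a value of a clone stands for that isolate. Nothing in the labels ties the 2 arrays of a clone to separate cultures, so p-values between clones measure only the spread between these arrays, which may be technical. The deposited values are log differences from the probe's median over the arrays of its line, called centred values below. The base of the logarithm is not stated and is taken as 2, so every difference here is in log2 units on that assumption. They hold no levels, so signal over background could not be judged, and the lines' own marker genes could not be checked for presence.

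Type I interferons bind the receptor IFNAR1/IFNAR2, whose kinases JAK1 and TYK2 start the signal. The complex ISGF3, which holds IRF9, then binds the interferon-stimulated response element (ISRE) in the promoters of these genes. The induced genes encode RNA sensors (RIGI, IFIH1), proteins that block viral RNA or entry (the IFIT, OAS, MX and IFITM families), the ubiquitin-like modifier ISG15 with its ligases, and transcription factors that feed back on the response (IRF1, IRF7, IRF9). Many cell lines express part of the set without added interferon.

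The response element that the genes share is shown first, because the rule that chose them used no sequence. RefSeq promoters (GRCh38.p14, 250 bases before to 50 bases after a start) were matched by symbol for 29 of the 36 measured genes. The ISRE core, searched as GAAA, any 2 bases and GAAA again, on both strands with overlaps allowed, lay in a promoter of 21 of the 29, against 4.38% of the 27305 genes with a promoter. All 21 also had a match upstream of the start, against 3.71% of all genes. The gamma-activated site TTCNNNGAA, also on both strands, was found in 9 of the 29, against 9.38% of all genes. The windows below are 60 bases upstream of a start, read 5′ to 3′ on the gene's strand, with each match to the ISRE core in capitals and overlapping matches run together. The first 8, picked after the values were seen, belong to genes that differed between clones, and BST2 and RSAD2 to genes that differed between no clones of the tests below. They lie at chr14:94110616-94110675 (plus strand) for IFI27, chr10:89392495-89392554 (plus strand) for IFIT1, chr10:89332453-89332512 (plus strand) for IFIT3, chr1:27672251-27672310 (minus strand) for IFI6, chr1:1013365-1013424 (plus strand) for ISG15, chr4:88457020-88457079 (plus strand) for HERC5, chr21:41431829-41431888 (plus strand) for MX1, chr7:93118081-93118140 (minus strand) for SAMD9, chr19:17405720-17405779 (minus strand) for BST2 and chr2:6877607-6877666 (plus strand) for RSAD2.
IFI27: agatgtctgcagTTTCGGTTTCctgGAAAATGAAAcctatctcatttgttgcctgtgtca
IFIT1: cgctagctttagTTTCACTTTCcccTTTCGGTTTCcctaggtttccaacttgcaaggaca
IFIT3: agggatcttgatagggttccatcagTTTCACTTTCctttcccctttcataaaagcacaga
IFI6: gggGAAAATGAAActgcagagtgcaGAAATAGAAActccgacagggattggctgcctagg
ISG15: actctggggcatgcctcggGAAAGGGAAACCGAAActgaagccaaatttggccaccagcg
HERC5: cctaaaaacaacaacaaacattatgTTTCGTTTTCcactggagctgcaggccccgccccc
MX1: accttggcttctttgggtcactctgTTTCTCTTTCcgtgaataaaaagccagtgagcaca
SAMD9: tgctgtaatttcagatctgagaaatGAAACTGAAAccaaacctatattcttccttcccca
BST2: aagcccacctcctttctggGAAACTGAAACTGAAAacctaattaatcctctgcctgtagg
RSAD2: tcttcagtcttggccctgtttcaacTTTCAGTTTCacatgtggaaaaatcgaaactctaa
A match describes these letters and does not show binding. The core was present on both sides of the later results: in 14 of the 21 matched genes that differed between clones and in 7 of the 8 that did not.

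The targeted gene, TERF2IP, was compared with the labels. Its 1 probe in HT1080 had centred values of -1.68 and -1.79 for knockout clone 8 and -1.11 and -1.20 for knockout clone 21, against 1.25 and 1.14 for wild-type clone 2 and 1.11 and 1.14 for wild-type clone 9, a difference of -2.61 (exact two-sided permutation test over clones, p = 0.333, the smallest possible; limma, adjusted p = 0.108). HCT116 clones overlapped, at -0.0070 and -0.44 in clone 10, -0.77 and -0.29 in clone 21 and 0.048 and 0.0070 in clone 28, all labelled knockout, against 0.12 and 0.069 in clone 15, -0.28 and -0.26 in clone 20 and 1.45 and 1.21 in clone 23, all labelled wild type (difference -0.63; exact p = 0.3, where 0.1 is the smallest possible; limma, adjusted p = 0.609). The HCT116 genotypes are therefore given as labelled, and the position of the probe relative to the edited part is not known here. Arrays of 1 clone correlated over all probes at r = 0.269 to 0.617 in HCT116 and 0.38 to 0.566 in HT1080, above the arrays of different clones (up to 0.258 in HCT116 and -0.081 in HT1080). In HCT116, the centred value over 14 probes of epithelial markers had a median of 0.21 in clone 10, labelled knockout, and -0.26 in clone 20, labelled wild type, and the other 4 clones lay between. Over 13 probes of blood markers the HCT116 clone medians were 0.038 to 0.069 in clones labelled knockout and -0.10 to -0.037 in clones labelled wild type. The medians over all probes were -0.0023 to 0.048 in the clones labelled knockout and -0.044 to -0.012 in those labelled wild type, so they lay apart in the same direction. Over 11 probes of mesenchymal markers the HCT116 clone medians were 0 to 0.064 in clones labelled knockout and -0.066 to -0.0015 in those labelled wild type. The mesenchymal marker VIM spread wider than these medians with both of its probes. HCT116 clone means of the more variable VIM probe were -0.63, 0.43 and -0.42 in clones 10, 21 and 28, labelled knockout. In clones 15, 20 and 23, labelled wild type, they were -0.84, 1.50 and 0.98. The other probe had -0.17, 0.26 and -0.19, against -0.36, 0.82 and 0.47, in the same order of clones. The clones labelled wild type were 2.33 and 1.18 apart with the 2 probes (F-test, adjusted p = 8.66e-09 and 2.27e-05). In HT1080, 11 probes of mesenchymal markers had medians of -0.15 in knockout clone 8 and 0.19 in knockout clone 21, against -0.14 in wild-type clone 2 and 0.023 in wild-type clone 9. Over the 13 blood-marker probes the HT1080 medians were -0.032 and 0 in knockout clones 8 and 21, against 0.050 and -0.053 in wild-type clones 2 and 9. All 3 probes of CD68, a macrophage marker, were higher in wild-type clone 2 than in wild-type clone 9, by 1.14 to 1.18 (adjusted p = 1.33e-05 to 3.99e-05). No blood marker other than CD68 passed between these clones. Of the 13 blood-marker probes, 10 were higher and 3 lower in clone 2 than in clone 9. The part of these markers in the results below was not tested.

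The series compared clones labelled knockout with clones labelled wild type within each line. No interferon-stimulated gene passed between genotypes in either line by the test over clones. The same test did not call TERF2IP in HT1080, at -2.61 (limma, adjusted p = 0.108), so a gene without a call may still have changed. In HCT116, 0 of the 53 probes passed an adjusted p of 0.05 between 3 clones labelled knockout and 3 labelled wild type (limma on clone means, Benjamini-Hochberg over all probes), against 0.0317% of all probes (15). An unadjusted p under 0.05 was reached by 4 of the 53, against 8.32% of all. Differences ran from -0.47 to 0.42 with a median of 0.030, against a median of 0.056 over all probes, and none of the 53 reached 0.5 in size (0.733% of all did). Of the 53 probes, 31 were higher in clones labelled knockout, against 70.2% of all probes. Relative to the median of all probes, 24 member probes lay above and 29 below. Leaving out 1 clone at a time gave 0 member probes except without clone 21, labelled knockout, where HERC6 passed.

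In HT1080, 0 of the 53 probes passed between 2 knockout and 2 wild-type clones, against 0.00423% of all probes (2), and 6 had an unadjusted p under 0.05 (5.08% of all). Knockout clones were higher for 23 of the 53, against 38.5% of all. The median difference was -0.030, against -0.037 over all probes, with 28 member probes above the median of all probes and 25 below it. Differences of at least 0.5 in size were measured for 8 probes of 8 genes, 15.1% of the 53, against 1.31% of all probes. MX1, IFI27 and OAS2 were higher in the knockout clones and IFIT2, HERC5, IFIT3, IRF9 and ISG20 lower, with no call for any of them. Without wild-type clone 2, MX1 and IFI27 passed, and without wild-type clone 9, IFIT2 did.

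**Figure D1:**
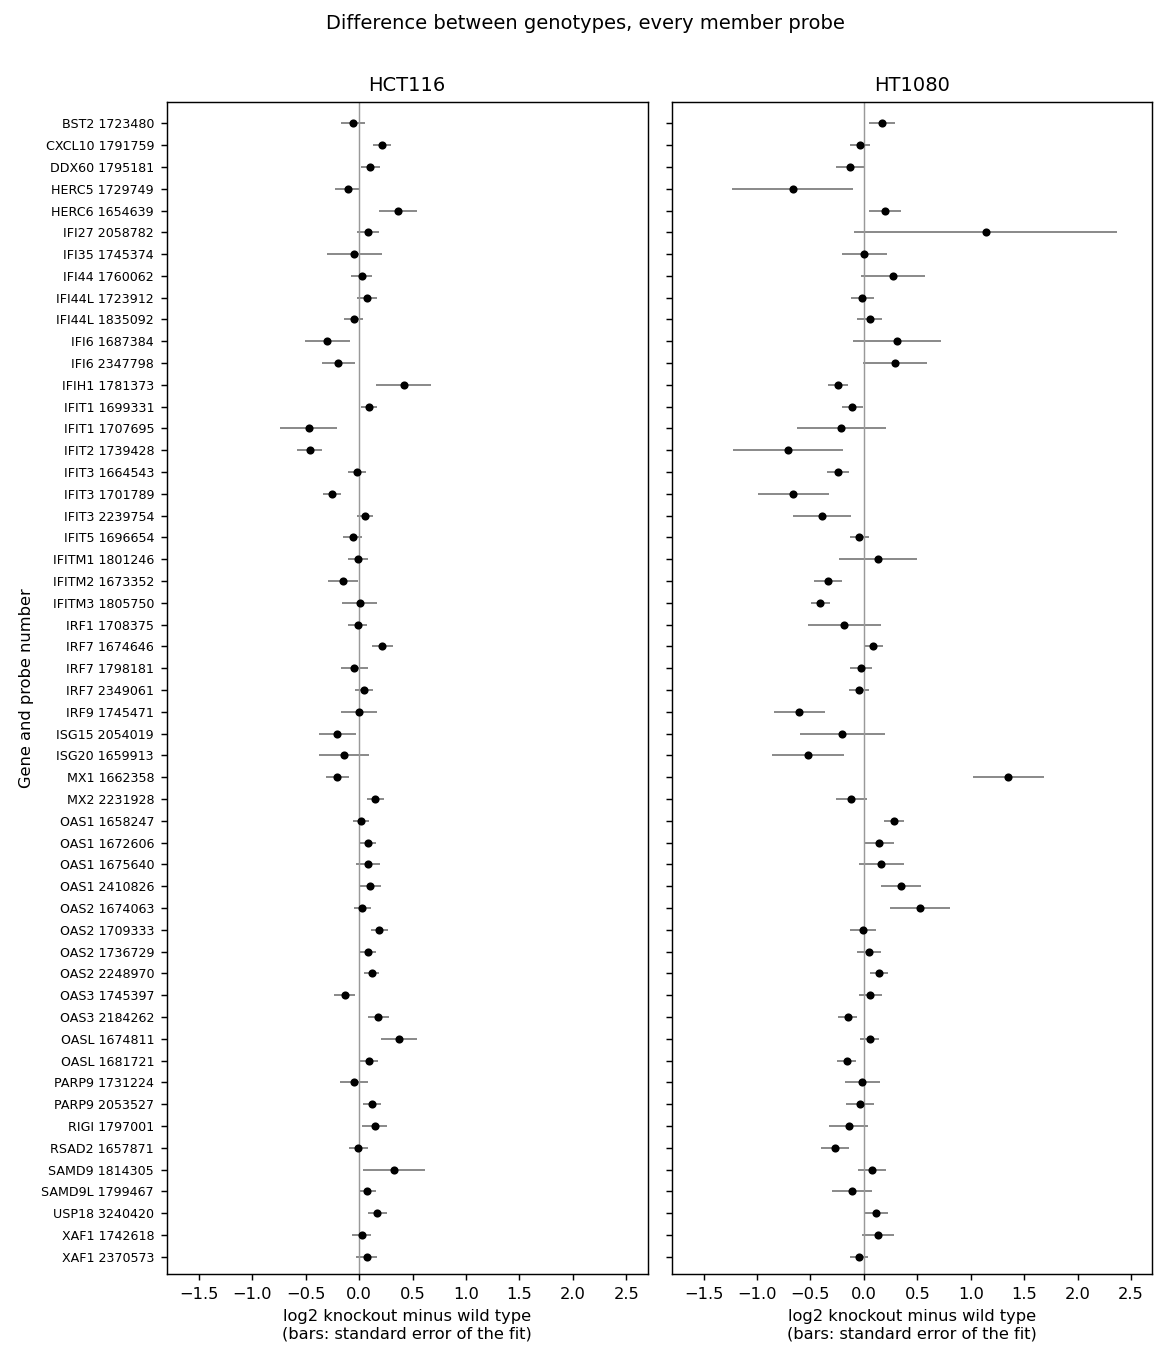
Difference between knockout and wild-type clone means for every member probe, in log2 units on the horizontal axis, with HCT116 (genotypes as labelled, 3 and 3 clones) left and HT1080 (2 and 2 clones) right. Points are the fitted differences and bars their standard errors; HCT116 points stay between -0.47 and 0.42, while MX1 reaches 1.35 and IFIT2 -0.71 in HT1080.

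With the 2 lines fitted together and the line as a factor, 0 of the 53 probes passed (all probes 0), and 5 had an unadjusted p under 0.05, against 4.52% of all probes. The change in HT1080 minus that in HCT116 passed for 0 of the 53, against 0.0296% of all probes (14), and 3 reached an unadjusted p under 0.05 (9.83% of all). MX1 had the lowest p among the members for that difference, 1.56 ± 0.34 (limma, unadjusted p = 7.84e-04, adjusted p = 0.379). Without wild-type clone 2 of HT1080, MX1 (2.07, adjusted p = 0.00219) and IFI27 (3.06, adjusted p = 0.00618) passed, and without wild-type clone 9 a probe of IFIT3 did (-0.87, adjusted p = 0.0431).

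Groups of clones that did not overlap were read against the share of all probes. In HCT116, clones labelled knockout lay above all those labelled wild type for 7 member probes (13.2%, against 13.1% of all probes) and below them for 2 (3.77%, against 2.58%), those of IFIT2 and 1 probe of IFIT3. In HT1080, knockout clones lay above for 6 member probes (11.3%, against 11.7%) and below for 10 (18.9%, against 25.3%). Those shares were near the background or under it. A single member probe lay on the same side in both lines, 1 of the 4 probes of OAS2, which was higher by 0.12 ± 0.072 in HCT116 and 0.14 ± 0.086 in HT1080 (1.89% of members, against 1.57% of all probes).

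Clones of 1 genotype were compared with each other in a separate fit, whose error is the spread between the arrays of a clone, so its counts cannot be set against those between genotypes. Between the 3 HCT116 clones labelled knockout, 13 of the 53 probes passed, of 13 genes, against 7.04% of all probes (limma moderated F-test over arrays, adjusted p under 0.05). Between the 3 HCT116 clones labelled wild type 7 probes of 6 genes passed, against 5.30% of all. The first count was 6 without clone 10 and 8 without clone 21, and the second 0 without clone 15 and 4 without clone 20. Knockout clone 8 of HT1080 differed from knockout clone 21 in 12 probes (2.65% of all probes did so), 2 higher (1.13% of all) and 10 lower (1.51%). Wild-type clone 2 of HT1080 differed from wild-type clone 9 in 19 probes (8.19% of all), 14 higher (4.04%) and 5 lower (4.15%). Marker lists also held calls in these 4 comparisons, given here in the same order. Epithelial markers (14 probes) had 5, 7, 1 and 0 calls. Mesenchymal markers (11 probes) had 2, 3, 4 and 1, and blood markers (13 probes) 0, 0, 0 and 3. At least 1 of the 4 comparisons called 28 of the member probes, 52.8%, against 17.0% of all probes. All probes include 17202 with no gene listed, and the members were chosen with earlier results of these data known, so the 2 sets are not alike.

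These 28 probes belong to 26 genes, 14 called in HCT116, 19 in HT1080 and 7 in both lines. The 7 are HERC6, IFI35, IFI6, IFIT1, IRF9, ISG15 and ISG20. The 10 genes called nowhere were BST2, CXCL10, DDX60, IFI44L, IFIT5, MX2, OAS3, RSAD2, USP18 and XAF1, which between them include the chemokine CXCL10, the tetherin gene BST2 and the ISG15 protease USP18. With signal over background unknown, a steady gene and a gene without signal cannot be told apart for these 10.

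Clone means of both genotypes spanned at least 1 for 6 member probes in HCT116 (11.3%, against 1.50% of all probes) and for 12 in HT1080 (22.6%, against 1.94%). Spans of at least 0.5 were found for 17 (32.1%, against 13.6%) and 21 (39.6%, against 9.81%). The spread between the 2 arrays of a clone was no wider than elsewhere, with a median SD of 0.111 over the member probes in HCT116 and 0.0902 in HT1080, against 0.122 and 0.116 over all probes.

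**Figure D2:**
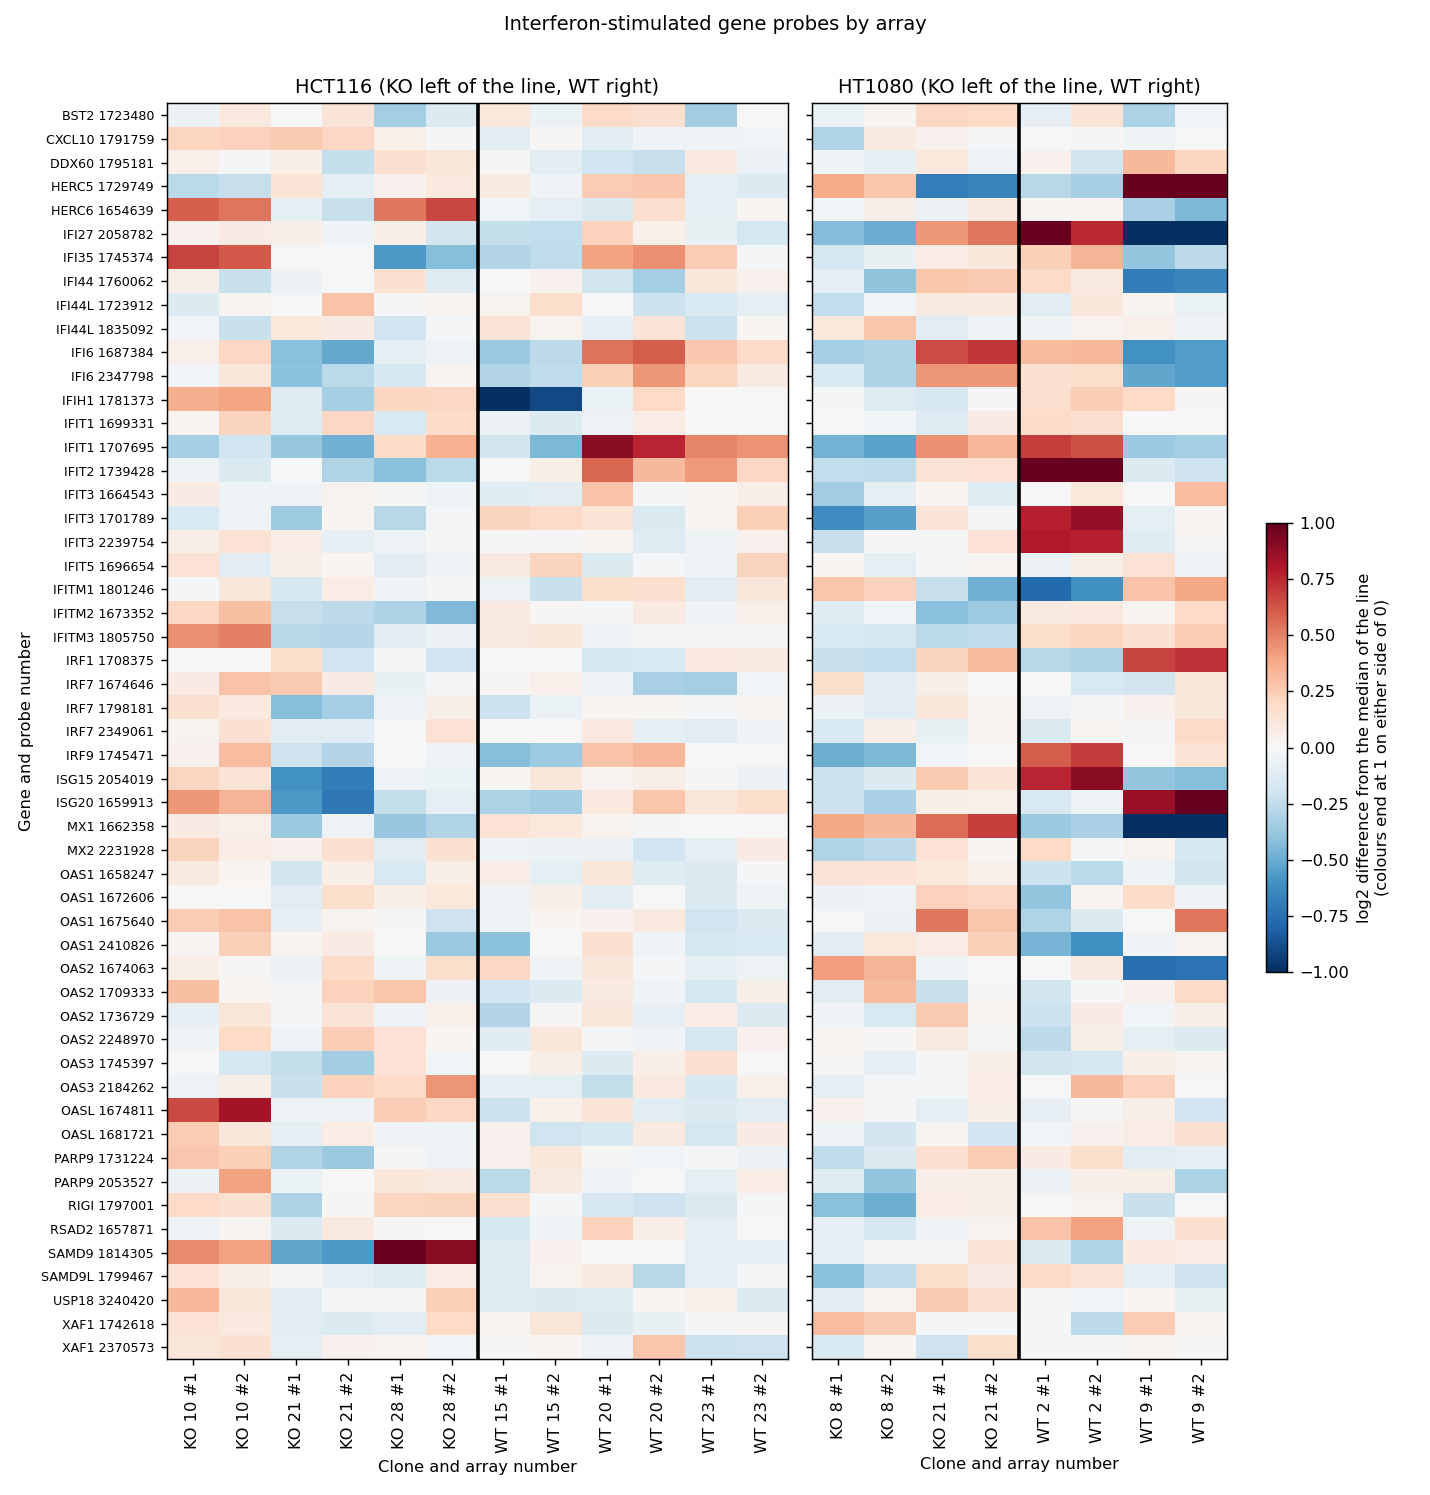
Centred log2 values of all 53 member probes (rows, gene and probe number) in each array (columns), HCT116 left and HT1080 right, with knockout-labelled arrays left of the black line and wild-type-labelled arrays right of it. Colours end at -1 and 1, and the 2 arrays of a clone look alike. IFI27, MX1 and HERC5 have strong colours in HT1080 wild-type clone 9 and SAMD9 in HCT116 clone 28, though not in these clones alone.

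The RNA sensors differed between clones in 1 line each. IFIH1 encodes MDA5, a sensor of long double-stranded RNA. In HCT116 the centred values of IFIH1 were 0.36 and 0.39 in clone 10, -0.13 and -0.33 in clone 21 and 0.21 and 0.21 in clone 28, all labelled knockout, against -1.03 and -0.90 in clone 15, -0.064 and 0.20 in clone 20 and 0.0055 and -0.0055 in clone 23, all labelled wild type. Clone 15 was lowest, clone 21 lay between it and the other clones labelled wild type, and the difference by label was 0.42 ± 0.25, adjusted p = 0.634. The probe passed among the clones labelled wild type, with means 1.03 apart (limma F-test, adjusted p = 3.22e-05), and among those labelled knockout, 0.60 apart (adjusted p = 0.00668). In HT1080, IFIH1 stood at -0.023 and -0.13 for knockout clone 8 and -0.17 and -0.013 for knockout clone 21, against 0.17 and 0.25 for wild-type clone 2 and 0.20 and 0.013 for wild-type clone 9. The HT1080 groups of clones did not overlap, with a difference of -0.24 ± 0.091, adjusted p = 0.864. RIGI, the sensor of RNA with a 5′ triphosphate, was lower in HT1080 knockout clone 8 than in knockout clone 21, by -0.52 ± 0.11 (limma, adjusted p = 0.0214), and the helicase gene DDX60 passed in no comparison of clones.

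Among the transcription factors, IRF9 encodes the DNA-binding subunit of ISGF3. Its centred values in HT1080 were -0.48 and -0.45 for knockout clone 8 and -0.031 and -0.0032 for knockout clone 21, against 0.60 and 0.70 for wild-type clone 2 and 0.0032 and 0.14 for wild-type clone 9. The 2 knockout clones were lower than either wild-type clone, and the difference of -0.60 ± 0.24 missed the threshold (limma, unadjusted p = 0.0456, adjusted p = 0.864, n = 2 and 2 clones). The clones of each genotype also differed: clone 8 minus 21 gave -0.45 ± 0.10 (adjusted p = 0.0368) and clone 2 minus 9 gave 0.58 ± 0.10 (adjusted p = 0.00327). In HCT116, IRF9 stood at 0.046 and 0.31 in clone 10, -0.21 and -0.29 in clone 21 and 0.0061 and -0.042 in clone 28, all labelled knockout, against -0.42 and -0.37 in clone 15, 0.28 and 0.33 in clone 20 and 0.0050 and -0.0050 in clone 23, all labelled wild type, a difference by label of -0.00066 ± 0.17. The groups overlapped, and IRF9 passed among the clones labelled wild type (0.70 apart, limma F-test, adjusted p = 0.00276). IRF1, an activator shared with the interferon-gamma response, was the member that differed the same way in both HT1080 pairs, by -0.50 ± 0.10 for clone 8 minus 21 and -1.00 ± 0.10 for clone 2 minus 9 (adjusted p = 0.0152 and 4.19e-05). Of the 3 probes of IRF7, which amplifies interferon production, 1 passed, among the HCT116 clones labelled knockout (0.52 apart, adjusted p = 0.0105).

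The IFIT proteins bind viral RNA and block its translation. IFIT2 had centred values in HCT116 of -0.049 and -0.15 in clone 10, 0 and -0.30 in clone 21 and -0.42 and -0.27 in clone 28, all labelled knockout, against 0 and 0.056 in clone 15, 0.57 and 0.33 in clone 20 and 0.43 and 0.21 in clone 23, all labelled wild type. No clone mean labelled knockout reached those labelled wild type, and the difference was -0.46 ± 0.12, the lowest unadjusted p of the members in HCT116 (limma, unadjusted p = 0.00294, adjusted p = 0.539, n = 3 and 3 clones). In HT1080, IFIT2 stood at -0.25 and -0.25 for knockout clone 8 and 0.13 and 0.15 for knockout clone 21, against 1.54 and 1.43 for wild-type clone 2 and -0.13 and -0.21 for wild-type clone 9. Wild-type clone 2 alone was high there, and the difference of -0.71 ± 0.51, adjusted p = 0.864, turned to 0.11 without that clone. Without wild-type clone 9 it was -1.54 and passed (adjusted p = 0.0301). Clone 2 exceeded clone 9 by 1.65 ± 0.10 (adjusted p = 6.47e-07), while clones 8 and 21 differed by -0.39 ± 0.10 (adjusted p = 0.0687).

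IFIT3, which stabilises IFIT1, had 3 probes. The probe of largest variance gave centred values in HT1080 of -0.62 and -0.55 for knockout clone 8 and 0.13 and -0.021 for knockout clone 21, against 0.78 and 0.88 for wild-type clone 2 and -0.10 and 0.021 for wild-type clone 9. Clone 8 was lowest and clone 2 highest, so that each genotype held 1 extreme, and the difference by genotype was -0.66 ± 0.33, adjusted p = 0.864. The pairs differed by -0.64 ± 0.11 for clone 8 minus 21 and 0.86 ± 0.11 for clone 2 minus 9 (adjusted p = 0.00499 and 2.46e-04). In HCT116 this probe stood at -0.16 and -0.046 in clone 10, -0.35 and 0.021 in clone 21 and -0.28 and -0.021 in clone 28, all labelled knockout, against 0.22 and 0.19 in clone 15, 0.14 and -0.14 in clone 20 and 0.028 and 0.24 in clone 23, all labelled wild type. Clone means did not overlap, with a difference of -0.25 ± 0.082, adjusted p = 0.591, although single arrays did. The other probes of IFIT3 gave -0.40 and -0.24 between genotypes in HT1080 and 0.054 and -0.022 in HCT116.

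IFIT1, a reader of RNA caps that lack methylation, was carried by 1 of its 2 probes. That probe stood in HCT116 at -0.34 and -0.20 in clone 10, -0.38 and -0.48 in clone 21 and 0.18 and 0.34 in clone 28, all labelled knockout, against -0.18 and -0.45 in clone 15, 0.90 and 0.76 in clone 20 and 0.49 and 0.45 in clone 23, all labelled wild type. Clones 20 and 23 were high and clone 15 lay between clones 10 and 21, and the difference by label was -0.47 ± 0.27, adjusted p = 0.62. In HT1080 its centred values were -0.47 and -0.54 for knockout clone 8 and 0.46 and 0.33 for knockout clone 21, against 0.69 and 0.63 for wild-type clone 2 and -0.37 and -0.33 for wild-type clone 9. Here 1 clone of each genotype was high and 1 low, with -0.90 ± 0.10 for clone 8 minus 21 and 1.01 ± 0.10 for clone 2 minus 9 (limma, adjusted p = 2.43e-04 and 4.52e-05), against -0.21 ± 0.41 between genotypes. The second IFIT1 probe passed in no comparison of clones, and neither did the probe of IFIT5.

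The OAS enzymes make 2'-5' oligoadenylate, the activator of RNase L. OAS2 was measured by 4 probes, of which the most variable stood in HT1080 at 0.42 and 0.34 for knockout clone 8 and -0.052 and -0.0036 for knockout clone 21, against 0.0036 and 0.087 for wild-type clone 2 and -0.76 and -0.74 for wild-type clone 9. Wild-type clone 9 was low and knockout clone 8 high, and the difference by genotype was 0.52 ± 0.28, adjusted p = 0.864. Clone 2 exceeded clone 9 by 0.79 ± 0.10 (adjusted p = 2.83e-04). The other 3 OAS2 probes gave -0.0076, 0.048 and 0.14 and passed in no comparison of clones. In HCT116 the most variable probe of OAS2 had values of 0.065 and 0.010 in clone 10, -0.062 and 0.18 in clone 21 and -0.046 and 0.17 in clone 28, all labelled knockout, against 0.21 and -0.036 in clone 15, 0.11 and -0.010 in clone 20 and -0.084 and -0.051 in clone 23, all labelled wild type, without a clone that stood apart. OAS1 had 4 probes, all higher in the HT1080 knockout clones, by 0.14 to 0.35, with adjusted p of 0.864 or more, and 1 of them passed between wild-type clones 2 and 9 (-0.54 ± 0.12, adjusted p = 0.0117). OASL, which resembles OAS1 and acts on RIGI, passed for 1 of 2 probes among the HCT116 clones labelled knockout, 0.80 apart (adjusted p = 9.23e-04), with clone 10 high at 0.66 and 0.83. Neither probe of OAS3 passed.

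MX1, a GTPase that blocks viral nucleocapsids, had the largest difference by genotype of all member probes. Its centred values in HT1080 were 0.39 and 0.32 for knockout clone 8 and 0.56 and 0.69 for knockout clone 21, against -0.37 and -0.32 for wild-type clone 2 and -1.37 and -1.39 for wild-type clone 9. All 4 knockout arrays lay above all 4 wild-type arrays, and the difference was 1.35 ± 0.33 (limma, unadjusted p = 0.00746, adjusted p = 0.864, n = 2 and 2 clones). The wild-type clones were themselves 1.04 ± 0.10 apart (clone 2 minus 9, adjusted p = 3.77e-05). Without wild-type clone 9 the difference was 0.83, and without wild-type clone 2 it was 1.87 and passed (adjusted p = 0.00619, with the lone clone assumed to vary like the others). In HCT116, MX1 stood at 0.085 and 0.050 in clone 10, -0.37 and -0.051 in clone 21 and -0.38 and -0.30 in clone 28, all labelled knockout, against 0.14 and 0.11 in clone 15, 0.033 and -0.023 in clone 20 and -0.00070 and 0.00070 in clone 23, all labelled wild type, and the groups overlapped, with a difference by label of -0.20 ± 0.11 (adjusted p = 0.607). MX2, which acts on nuclear import of retroviruses, passed in no comparison.

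The IFITM proteins block viral entry at membranes. IFITM3 and IFITM2 were lower in both HT1080 knockout clones than in both wild-type clones, with differences of -0.41 ± 0.091 (limma, unadjusted p = 0.00506, the lowest of the members in HT1080, adjusted p = 0.864) and -0.34 ± 0.13 (adjusted p = 0.864). All 4 knockout arrays of IFITM3 lay below all 4 wild-type arrays, at -0.15 and -0.16 for knockout clone 8 and -0.27 and -0.25 for knockout clone 21, against 0.18 and 0.21 for wild-type clone 2 and 0.15 and 0.24 for wild-type clone 9. In HCT116 the difference by label was 0.0073 ± 0.16 for IFITM3, and both genes passed among the clones labelled knockout, 0.76 and 0.63 apart, with clone 10 highest. IFITM1 differed by 0.13 ± 0.37 between the HT1080 genotypes (adjusted p = 0.959), and it was higher in clone 8 than in clone 21 (0.61 ± 0.12) and lower in clone 2 than in clone 9 (-1.03 ± 0.12; adjusted p = 0.0129 and 1.26e-04). IFITM1, IFITM2 and IFITM3 are related neighbours, so probes may share signal between them, which was not tested.

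ISG15 is a ubiquitin-like modifier, HERC5 its main ligase in human cells and HERC6 a relative. HERC5 had centred values in HT1080 of 0.37 and 0.28 for knockout clone 8 and -0.69 and -0.66 for knockout clone 21, against -0.28 and -0.34 for wild-type clone 2 and 1.26 and 1.31 for wild-type clone 9. Wild-type clone 9 was highest and knockout clone 21 lowest, and the difference of -0.66 ± 0.57 (limma, adjusted p = 0.876) turned to 0.13 without wild-type clone 9. The pairs differed by 1.00 ± 0.10 (clone 8 minus 21, adjusted p = 9.38e-05) and -1.59 ± 0.10 (clone 2 minus 9, adjusted p = 9.55e-07). In HCT116, HERC5 stood at -0.27 and -0.23 in clone 10, 0.14 and -0.10 in clone 21 and 0.046 and 0.10 in clone 28, all labelled knockout, against 0.088 and -0.046 in clone 15, 0.26 and 0.27 in clone 20 and -0.092 and -0.14 in clone 23, all labelled wild type, and no comparison of those clones called it. ISG15 was 1.24 ± 0.11 apart between clones 2 and 9 (adjusted p = 1.18e-05) and 0.82 apart among the HCT116 clones labelled knockout (F-test, adjusted p = 1.05e-04), where clone 21 was low at -0.61 and -0.69. HERC6 in HCT116 stood at 0.60 and 0.54 in clone 10, -0.10 and -0.23 in clone 21 and 0.53 and 0.67 in clone 28, all labelled knockout, against -0.029 and -0.10 in clone 15, -0.14 and 0.16 in clone 20 and -0.093 and 0.029 in clone 23, all labelled wild type. Clones 10 and 28 were high, the difference by label was 0.36 ± 0.18, adjusted p = 0.6, and without clone 21 it was 0.61 and passed (adjusted p = 0.0193).

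SAMD9, a restriction factor of poxviruses, had the widest span of clones in HCT116. Its centred values there were 0.48 and 0.41 in clone 10, -0.52 and -0.57 in clone 21 and 0.99 and 0.90 in clone 28, all labelled knockout, against -0.13 and 0.043 in clone 15, -0.0023 and 0.0023 in clone 20 and -0.089 and -0.081 in clone 23, all labelled wild type. Clones 28 and 10 lay above, and clone 21 below, all 3 clones labelled wild type, so the clones labelled knockout lay on both sides of the others, 1.49 apart (limma F-test, adjusted p = 1.22e-07), while the difference by label was 0.32 ± 0.29, adjusted p = 0.721. In HT1080, SAMD9 stood at -0.095 and 0.014 for knockout clone 8 and -0.014 and 0.13 for knockout clone 21, against -0.14 and -0.30 for wild-type clone 2 and 0.10 and 0.072 for wild-type clone 9 and passed nowhere. Its neighbour SAMD9L was lower in knockout clone 8 than in clone 21 (-0.46 ± 0.11, adjusted p = 0.0412). PARP9, which modifies STAT signalling, passed for 1 of 2 probes among the HCT116 clones labelled knockout (0.59 apart, adjusted p = 0.0036).

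ISG20 is an exonuclease that degrades viral RNA. In HCT116 its centred values were 0.44 and 0.34 in clone 10, -0.57 and -0.72 in clone 21 and -0.24 and -0.10 in clone 28, all labelled knockout, against -0.32 and -0.35 in clone 15, 0.10 and 0.28 in clone 20 and 0.12 and 0.17 in clone 23, all labelled wild type. Clone 21 was lowest and clone 10 highest, both labelled knockout, and the difference by label was -0.14 ± 0.23, adjusted p = 0.847. Centred values of ISG20 in HT1080 were -0.22 and -0.33 for knockout clone 8 and 0.061 and 0.052 for knockout clone 21, against -0.15 and -0.052 for wild-type clone 2 and 0.86 and 1.00 for wild-type clone 9. Wild-type clone 9 alone was high, -1.03 ± 0.11 for clone 2 minus 9 (limma, adjusted p = 5.18e-05), and the difference by genotype of -0.52 ± 0.33, adjusted p = 0.864, was -0.0072 without that clone.

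IFI27, a mitochondrial protein and one of the most inducible of these genes, had the widest span of clones in HT1080. Its centred values were -0.44 and -0.50 for knockout clone 8 and 0.44 and 0.54 for knockout clone 21, against 0.99 and 0.75 for wild-type clone 2 and -3.09 and -3.18 for wild-type clone 9. Wild-type clone 9 lay below the other 3 clones, with 4.00 ± 0.11 for clone 2 minus 9 (limma, adjusted p = 8.91e-10), and the knockout clones were -0.95 ± 0.11 apart (clone 8 minus 21, adjusted p = 3.40e-04). The difference by genotype was 1.14 ± 1.23, adjusted p = 0.892, which turned to -0.86 when wild-type clone 9 was left out. Leaving out wild-type clone 2 gave 3.14, which passed (adjusted p = 0.022). In HCT116, IFI27 stood at 0.041 and 0.079 in clone 10, 0.059 and -0.041 in clone 21 and 0.070 and -0.18 in clone 28, all labelled knockout, against -0.24 and -0.25 in clone 15, 0.23 and 0.050 in clone 20 and -0.074 and -0.17 in clone 23, all labelled wild type, with no clone apart.

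IFI6, an inhibitor of apoptosis, varied in both lines with both of its probes. The more variable probe stood in HT1080 at -0.34 and -0.31 for knockout clone 8 and 0.66 and 0.71 for knockout clone 21, against 0.31 and 0.33 for wild-type clone 2 and -0.60 and -0.56 for wild-type clone 9. Clone 21 was highest, clone 9 lowest, and each genotype held 1 high and 1 low clone, with -1.01 ± 0.10 for clone 8 minus 21 and 0.90 ± 0.10 for clone 2 minus 9 (limma, adjusted p = 7.16e-05 and 8.58e-05). The other probe gave -0.67 and 0.70. In HCT116 the more variable probe had values of 0.054 and 0.21 in clone 10, -0.41 and -0.51 in clone 21 and -0.10 and -0.054 in clone 28, all labelled knockout, against -0.37 and -0.26 in clone 15, 0.54 and 0.61 in clone 20 and 0.27 and 0.19 in clone 23, all labelled wild type. Clone 20 was highest and clones 21 and 15 low, 0.59 apart among clones labelled knockout and 0.89 among those labelled wild type (adjusted p = 0.00473 and 2.10e-04), and the difference was -0.30 ± 0.21 by label in HCT116 and 0.31 ± 0.41 in HT1080 (adjusted p = 0.667 and 0.912).

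IFI35, a partner of NMI, spanned both sides of the median within each HCT116 label. It stood at 0.68 and 0.61 in clone 10, -0.0033 and 0.0033 in clone 21 and -0.57 and -0.43 in clone 28, all labelled knockout, against -0.29 and -0.25 in clone 15, 0.40 and 0.46 in clone 20 and 0.25 and -0.014 in clone 23, all labelled wild type. Clone 10 was highest and clone 28 lowest, 1.14 apart (F-test, adjusted p = 9.63e-06), and the difference by label was -0.044 ± 0.26, adjusted p = 0.96. In HT1080 the values of IFI35 were -0.17 and -0.076 for knockout clone 8 and 0.076 and 0.11 for knockout clone 21, against 0.24 and 0.34 for wild-type clone 2 and -0.39 and -0.26 for wild-type clone 9, and clone 2 exceeded clone 9 by 0.61 ± 0.10 (adjusted p = 0.00249). IFI44, a cytoplasmic protein of the same response, was lower in clone 8 than in clone 21 (-0.52 ± 0.12, adjusted p = 0.0363) and higher in clone 2 than in clone 9 (0.81 ± 0.12, adjusted p = 8.17e-04). Neither of the 2 probes of its neighbour IFI44L, nor of XAF1, an antagonist of the apoptosis inhibitor XIAP, passed.

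**Figure D3:**
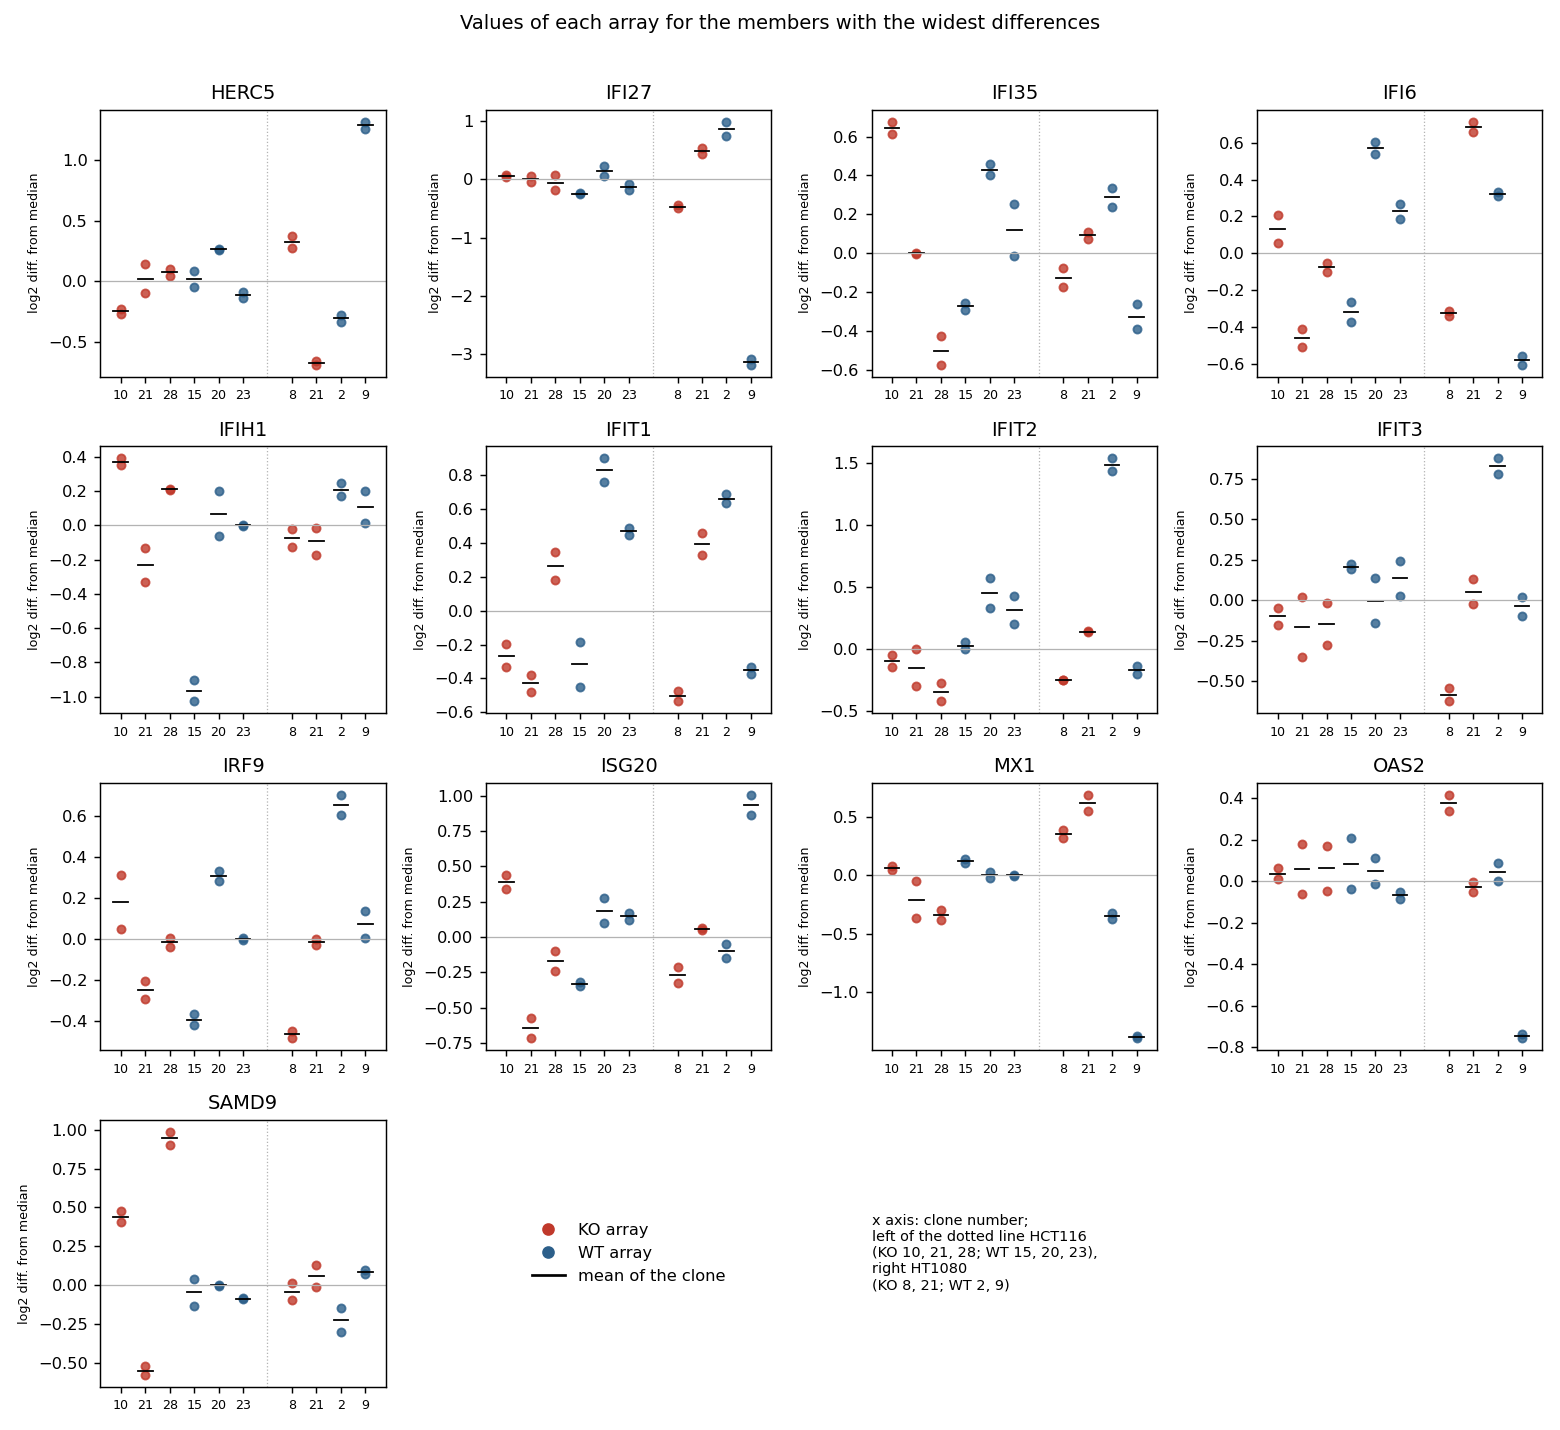
Centred log2 values (vertical axis) of each array for the 13 genes with the widest differences, by clone number on the horizontal axis, HCT116 left of the dotted line and HT1080 right. Red points are knockout-labelled arrays, blue points wild-type arrays and black bars clone means; IFI27 in HT1080 wild-type clone 9 lies at -3.09 and -3.18, and MX1 has the HT1080 knockout arrays above all wild-type ones.

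Which clones stood apart was not the same for all genes of a line. Of the 13 member probes that passed among the HCT116 clones labelled knockout, clone 10 was highest in 10 (76.9%, against 42.4% of the 3330 probes of any gene that passed) and clone 21 lowest in 11 (84.6%, against 52.4%). Over all 53 probes the clone medians of centred values ran from -0.033 (clone 21) to 0.11 (clone 10) among clones labelled knockout and from -0.045 (clone 15) to 0.0082 (clone 20) among those labelled wild type, while clone 10 had the highest median over all 47323 probes too, 0.048.

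In HT1080 the knockout pair and the wild-type pair were set side by side, as they share no arrays. They do share 1 fit and its error for each probe, so a probe with a small error passes more easily in both. The 10 probes that passed in both make up 83.3% of the calls of the knockout pair and 52.6% of those of the wild-type pair, against 47.0% and 15.2% over all probes. Of these, 9 had opposite signs, that is, lower in clone 8 than 21 and higher in clone 2 than 9, or the reverse, and 1 had the same sign. Of the 589 probes of any gene that passed in both, 304 had opposite signs and 285 the same. The probes of IFI27, IFI6, IFI44, IFIT1, IFIT3 and IRF9 were lower in clone 8 and higher in clone 2, and those of HERC5 and IFITM1 the reverse. No test was made of this pattern, and the numbering of the clones sets which sign is called opposite.

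**Figure D4:**
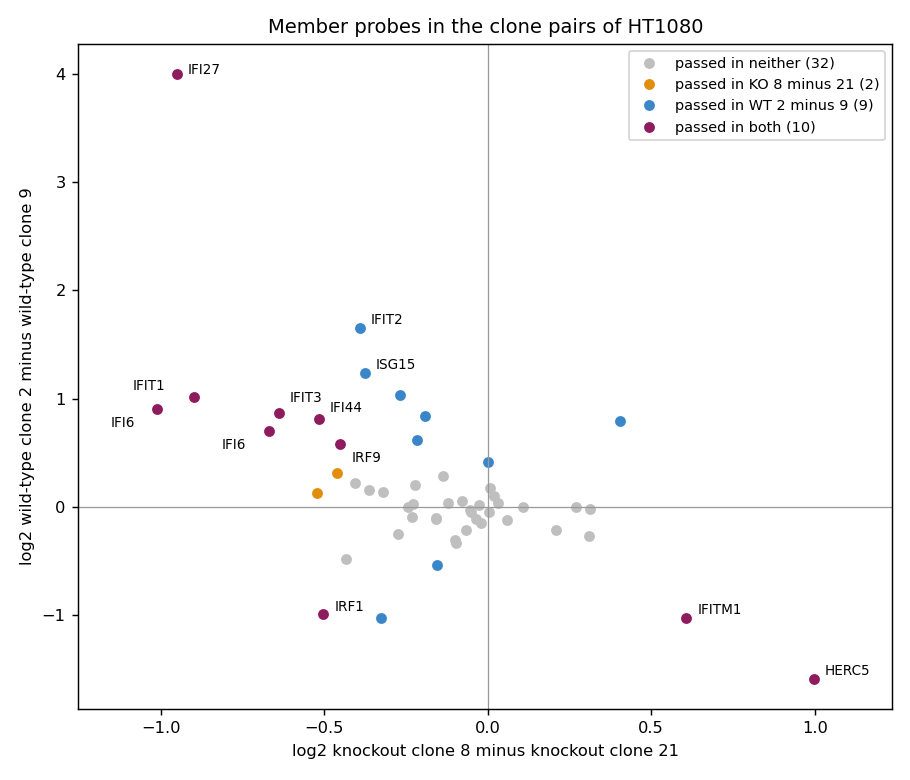
Difference between HT1080 knockout clones 8 and 21 (horizontal axis, log2) and between wild-type clones 2 and 9 (vertical axis, log2) for each of the 53 member probes, coloured by the comparison in which the probe passed. The 10 probes that passed in both lie mostly upper left or lower right, from IFI27 at -0.95 and 4.00 to HERC5 at 1.00 and -1.59, and IRF1 is lower left.

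Other genes of the pathway were counted from lists by role, and 0 probes of any list passed between genotypes in either line (limma). Over all probes the median difference was 0.056 in HCT116 and -0.037 in HT1080, and 8.32% and 5.08% had an unadjusted p under 0.05, beside which the values below stand. For interferons themselves (10 genes, 14 probes) the median difference was 0.068 in HCT116 and -0.092 in HT1080, with 0 at an unadjusted p under 0.05 in each. The receptor genes (6 genes, 10 probes) had medians of 0.035 and -0.050, with 2 and 0 at an unadjusted p under 0.05. The JAK kinases and STATs (6 genes, 8 probes) had medians of 0.095 and -0.16, with 1 and 0. The inhibitors of the SOCS, PIAS and phosphatase families (8 genes, 14 probes) had medians of -0.11 and -0.0097, with 3 and 0, and the other IRF genes (4 genes, 6 probes) 0.14 and -0.077, with 0 in each. The largest single difference among these 5 lists was that of SOCS2, a feedback inhibitor of cytokine receptors, in HT1080, -0.68 ± 0.40 and -0.59 ± 0.48 with its 2 probes (adjusted p = 0.864 and 0.872). Wild-type clone 9 alone was high there, with clone means of 0.026 and 0.25 in knockout clone 8 and -0.34 and -0.40 in knockout clone 21, against -0.095 and -0.21 in clone 2 and 1.15 and 1.24 in clone 9, both wild type. Clone 2 minus 9 gave -1.25 ± 0.12 and -1.45 ± 0.11 (adjusted p = 3.18e-05 and 3.78e-06).

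A further 40 interferon-stimulated genes (66 probes) had a median difference of 0.019 in HCT116 and -0.083 in HT1080, with 7 and 3 probes at an unadjusted p under 0.05. Between clones they passed in 6 probes of 66 among HCT116 clones labelled knockout (7.04% of all probes did), 5 among those labelled wild type (5.30%), 2 for HT1080 clone 8 minus 21 (2.65%) and 11 for clone 2 minus 9 (8.19%). APOBEC3G, a cytidine deaminase that edits viral DNA, had -0.48 ± 0.16 and -0.40 ± 0.14 with its 2 probes in HCT116 (adjusted p = 0.591 each). Clone 20, labelled wild type, was highest with both, at 0.80 and 0.62, and the clones labelled wild type were 0.71 and 0.62 apart (F-test, adjusted p = 0.00427 and 0.00379). The kinase gene EIF2AK2 had -0.41 ± 0.13 there, and STAT4 of the list of kinases and STATs 0.43 ± 0.18 (adjusted p = 0.591 each). In clones 10, 21 and 28, labelled knockout, means were -0.50, 0.015 and -0.27 for EIF2AK2 and 0.61, -0.12 and 0.40 for STAT4. Clones 15, 20 and 23, labelled wild type, had 0.34, 0.067 and 0.056, and -0.36, 0.073 and -0.13. The clones labelled knockout were 0.52 and 0.73 apart (F-test, adjusted p = 0.0150 and 0.00166). The guanylate-binding proteins (5 genes, 6 probes) had medians of 0.084 and 0.013, with 0 at an unadjusted p under 0.05. Antigen presentation genes (12 genes, 22 probes), which interferons also induce, had a median of 0.019 in HCT116 and -0.17 in HT1080, where 20 of 22 probes were lower in the knockout clones (38.5% of all probes were higher there), 7 at an unadjusted p under 0.05, against 5.08% of all probes. HLA-B, which presents peptides to T cells, differed most there, by -0.99 ± 0.16 (adjusted p = 0.858). In HCT116 the difference of HLA-B by label, -0.32 ± 0.34 (adjusted p = 0.753), came with clone means of 0.51 in clone 10, -0.081 in clone 21 and -1.20 in clone 28, all labelled knockout, against -0.024, 0.23 and -0.016 in clones 15, 20 and 23, labelled wild type. Clone 28 alone was low, and the clones labelled knockout were 1.71 apart (F-test, adjusted p = 7.32e-08). Also in HT1080, 1 probe of HLA-F had -0.47 ± 0.11 and 1 probe of the immunoproteasome subunit PSMB9 -0.35 ± 0.11 (adjusted p = 0.864 each). Another probe of each gene overlapped between genotypes. For HLA-F its clone means were 0.14 and -0.023 in knockout clones 8 and 21, against 0.013 and -0.15 in wild-type clones 2 and 9. For PSMB9 they were -0.17 and 0.19, against -0.18 and 0.38.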

How the data were processed

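Total RNA, extracted on RNeasy columns and amplified with biotin label per the labels' protocols, had been hybridised to 24 Illumina arrays of 14 clones or parental cultures from 3 lines. Only HCT116 (12 arrays) and HT1080 (8 arrays) were compared here. The deposited values are on a log2 scale by assumption and centred per probe within a line. The background correction and normalization are not given in the sources used here. Centring removed levels. Probes were named from the platform annotation, with symbols updated through Entrez identifiers for 30074 probes; 30113 had 1 symbol, 8 several and 17202 none listed. Members and lists were chosen with earlier results of these data known.

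The 2 arrays of a clone were averaged, and genotypes were compared over clones with limma 3.58.1 (lmFit, eBayes) across 47323 probes, with Benjamini-Hochberg adjustment and a threshold of 0.05. Clones of 1 genotype were compared over arrays. The fits between genotypes within a line were also run on simulated data. The outcome of that run is not given, and no value here rests on it. The number of clones limits the precision. Every array's value is printed for probes with a genotype difference of at least 0.5 in a line or among the 6 widest spans of clone means of a line, with a few further members chosen after their values were seen (IFITM3, HERC6). Alternatives changed the normalization, the probes per gene, the arrays used, the prior, the replicate block and the clones included.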

Additional observations from a re-analysis of the deposited data

How the results depend on the processing

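No member passed between genotypes under another normalization, choice of probes, choice of arrays, prior or replicate block, in HCT116, in HT1080 or in both together. Leaving out 1 clone at a time gave 0 to 1 member probes in HCT116 (HERC6 without clone 21) and 0 to 2 in HT1080, where an arm then held a lone clone assumed to vary like the others. For the difference between the lines it gave 0 to 2, with MX1 and IFI27 called without wild-type clone 2 of HT1080 and 1 probe of IFIT3 without wild-type clone 9.

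Over all probes, the 15 calls in HCT116 became 8 with each array centred, 3 with 1 probe per gene, 0 with the mean of a gene's probes, 25 with the first arrays alone and 0 to 164 without 1 clone. The 2 calls in HT1080 became 5 with quantile normalization, 0 with the mean of a gene's probes, 12 with the first arrays, 9 with the second arrays, 5 with a robust prior and 0 to 121 without 1 clone. With both lines together the count was 0, and 0 to 1 without 1 clone. The 14 probes that differed between the lines became 9 with the mean of a gene's probes and 12 to 115 without 1 clone.

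Another fit took single arrays in place of clone means, with the clone as the block of correlated arrays and the array number as a factor. It gave 221 probes in HCT116, 89 in HT1080, 69 together and 219 for the difference between the lines, there with 1 member, MX1. Its units are arrays, so these counts cannot be set against those over clone means. The array numbers did not pair the samples: deviations of same-numbered arrays correlated between clones at -0.157 to 0.145 in HCT116 and -0.042 to 0.121 in HT1080.

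The members' median difference was 0.012 to 0.088 in HCT116 and -0.10 to 0.064 in HT1080 without 1 clone. The median difference between the lines, -0.12, was -0.055 with each array centred, -0.044 with quantile normalization and -0.17 to -0.029 without 1 clone. In HT1080, without 1 clone, HERC5 ran from -1.46 to 0.13 (0.13 without wild-type clone 9), IFI27 from -0.86 to 3.14 (-0.86 without wild-type clone 9) and IFIT2 from -1.54 to 0.11 (0.11 without wild-type clone 2).

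Among HCT116 clones labelled knockout, 6 to 13 member probes and 1118 to 2700 of all probes passed without 1 clone. Among those labelled wild type it was 0 to 7 (0 without clone 15) and 376 to 2631. The cause of these moves was not tested beyond the smaller number of clones or probes that an alternative leaves. With no levels deposited, signal over background could not be set beside any value.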

Other observations

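The third line, ARPE-19, from retinal pigment epithelium, had 1 array for each of 4 clones or cultures and enters no comparison. The member probe with the widest span there was that of DDX60, an RNA helicase, with centred values of 1.11 in knockout clone 25 and 0.015 in knockout clone 30, against -0.015 in wild-type clone 23 and -0.78 in the parental cells. DDX60 passed in no comparison of HCT116 or HT1080 clones.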
